A study of Homo sapiens with 2 samples.

Results

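The gelsolin family comprises proteins that bind, cap or cut actin filaments and share a repeated gelsolin-like domain. The 7 family genes described here, SCIN, GSN, VIL1, AVIL, CAPG, FLII and SVIL, were found by their symbol among the 19775 genes of the array table. A probe set, a group of short probes that reports on a single transcript region, was taken for a member only where the platform annotation gave it exactly 1 gene symbol. This gave 26 probe sets for the 7 genes, and each gene is represented by whichever of its probe sets was brightest on average. The family was chosen by a measured value, the large difference of SCIN between these same arrays, so its values are a description and support nothing beyond themselves.

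RNA came from HEC1A cells, a human line grown from an adenocarcinoma of the endometrium, in 2 engineered states that received no treatment. The first state was overexpression of EMP2, epithelial membrane protein 2, a small tetraspan protein, and the second was knockdown of EMP2 by a short hairpin RNA vector. The promoters of the constructs, and whether each line is a single clone, were not known here. With 1 array per group there is no replicate and no test, and the number of arrays limits the precision. Unmodified HEC1A cells were not analysed here, and a difference therefore belongs to the pair of states and not to either alone. Every difference below is the log2 value in EMP2 overexpression minus that in EMP2 knockdown.

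Gelsolin-type proteins respond to calcium, which opens the folded protein and lets it cut filaments. They then stay on the fast-growing barbed end as a cap, and binding to the membrane lipid PIP2 releases them. In epithelia they take part in the cortical actin mesh, microvilli and cell motility. Members differ in how many gelsolin-like domains they carry and in whether they add a headpiece or other domains that bind filaments or partner proteins.

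The labels were checked on EMP2 itself, which stood at 12.25 in overexpression against 9.51 in knockdown on its brightest probe set. The other 3 EMP2 probe sets differed by 0.39, 0.23 and 0.00. The first 2 of these were also bright, at 10.44 and 10.05 and at 9.67 and 9.43, and stayed under 1.5-fold. The last read 5.93 on both arrays. The check of the labels thus rests on the brightest EMP2 probe set alone. Among the 12061 genes past the brightness filter (genes and probe sets that passed it are called filtered below), which required the higher of both values to reach 6.40, the median difference was 0.00. The highest of 27 bacterial control probe sets, 5.85, served as the background level. The 18 hybridization controls differed by at most 0.10, which covers hybridization and scanning only and not the spread between cultures. All 8 epithelial markers were above background on both arrays, among them EPCAM at 13.13 and 13.12 and PAX8, a factor of Mullerian epithelium, at 11.26 and 11.33. Of these 8, CDH1 differed by 1.08, KRT19 by -0.97 and KRT8 by -0.77, and the other 5 were under 1.5-fold. Above background on both arrays were also 3 of 5 leukocyte markers, 5 of 6 fibroblast and smooth muscle markers and 3 of 5 endothelial markers. Values in these lists went up to 9.98, 8.51 and 6.82. Among them, CD3E, DCN, PDGFRB and VWF did not reach the brightness filter, with values of at most 6.34. COL1A1, which gave the 8.51, DCN and ITGB2 were read on probe sets with an x in the name, as were the epithelial KRT8 and KRT18. Such probe sets may cross-hybridize with other transcripts. PTPRC, which defines leukocytes, was below background at 3.72 and 3.68, as were the endothelial CDH5 and KDR. Apart from LCP1, described with the bundling genes, no marker of these 3 lists reached 1.5-fold.

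SCIN was the only member past 1.5-fold on its brightest probe set, and it was higher in the EMP2-overexpressing cells. SCIN (Entrez gene 85477) encodes scinderin, also called adseverin, a calcium-dependent severing protein known for opening the cortical actin of secretory cells. Its brightest probe set, 1552365_at, had a value of 8.79 in overexpression and of 5.95 in knockdown. The overexpression value was well above the background level, while the knockdown value lay only 0.10 above it. The difference was 2.84 on the log2 scale, or 7.17-fold, the 10th highest of the 12061 genes by deposited values. An absolute difference at least as large was found for 0.257% of these genes. SCIN passed the filter through the overexpression array alone. In bulk RNA, more cells with SCIN and more SCIN RNA per cell cannot be told apart.

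The other SCIN probe sets were uneven. Probe set 1552367_a_at had a value of 6.61 in overexpression and of 4.79 in knockdown. The knockdown value was below background, so the overexpressing cells were at least 1.70-fold higher there, and the deposited values differed by 1.83. Against the 95th percentile of the controls, 4.98, the bound was 3.11-fold. Probe set 222272_x_at read 6.53 and 6.13, a difference of 0.40, and both of these values were above background. In Affymetrix naming the x marks a probe set that may cross-hybridize with other transcripts. Probe set 239365_at read 3.64 on both arrays, below background. Of the 4 probe sets, 2 were therefore past 1.5-fold, and both had a knockdown value close to or below the background level. With the 4 probe sets averaged, SCIN read 6.39 and 5.13. That average differed by 1.27 and no longer reached the brightness filter.

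**Figure D1:**
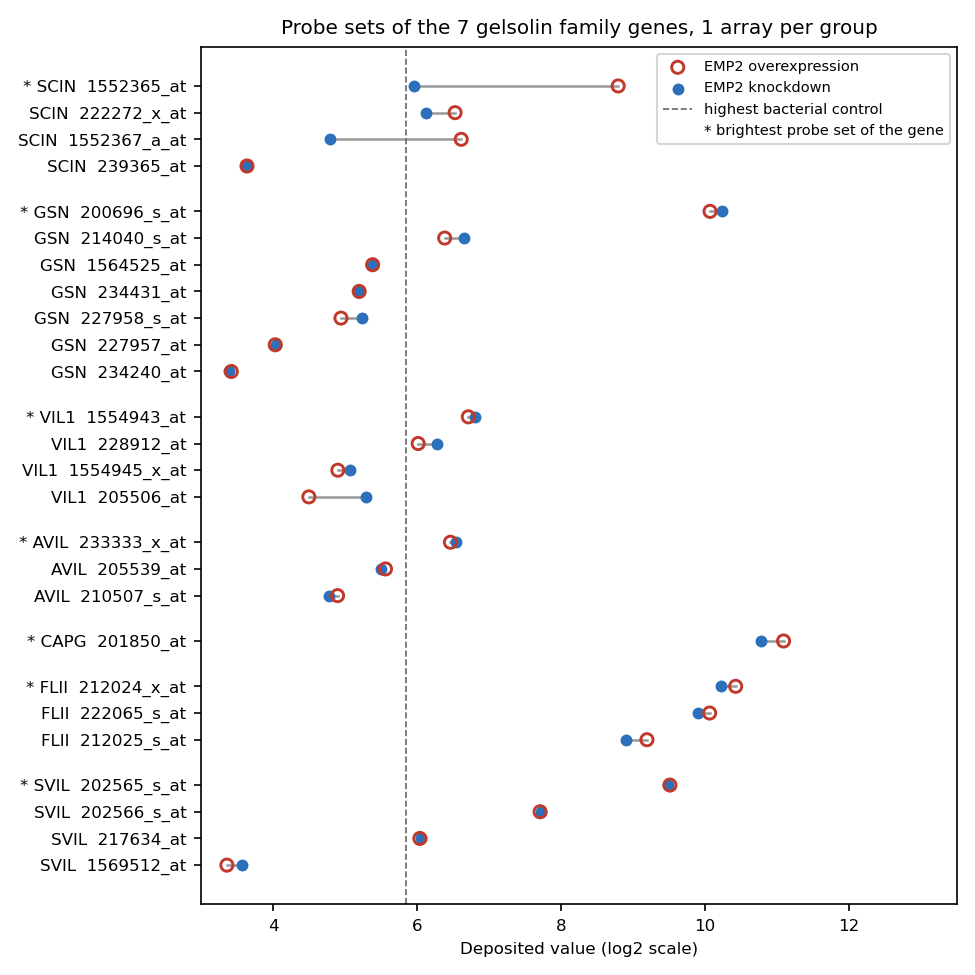
Deposited log2 values (x axis) of the 26 probe sets of the 7 gelsolin family genes (y axis), with open red circles for EMP2 overexpression, filled blue circles for EMP2 knockdown, a dashed line at the highest bacterial control (5.85) and an asterisk at each gene's brightest probe set. SCIN has the widest gap, from 5.95 to 8.79, while the circles of the 3 brightest SVIL probe sets nearly coincide and 11 probe sets have both values left of the line.

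The bases before the SCIN start are shown beside those of FLII. FLII is a member with a single listed start and several bright probe sets that differed by less than 1.5-fold. The letters of the most different gene and of a little different one are printed for reading only, and no link to the differences was tested. Both are RefSeq windows of GRCh38.p14, the 250 bases before the start on the gene's own strand, 5′ to 3′, at chr7:12570470-12570719 (plus strand) and chr17:18258739-18258988 (minus strand). Capitals mark matches to the motifs searched.
SCIN: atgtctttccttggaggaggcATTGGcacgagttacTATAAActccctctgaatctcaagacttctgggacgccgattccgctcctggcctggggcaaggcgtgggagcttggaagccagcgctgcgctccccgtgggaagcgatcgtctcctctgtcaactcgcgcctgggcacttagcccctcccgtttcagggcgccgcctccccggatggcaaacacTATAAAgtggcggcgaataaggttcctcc
FLII: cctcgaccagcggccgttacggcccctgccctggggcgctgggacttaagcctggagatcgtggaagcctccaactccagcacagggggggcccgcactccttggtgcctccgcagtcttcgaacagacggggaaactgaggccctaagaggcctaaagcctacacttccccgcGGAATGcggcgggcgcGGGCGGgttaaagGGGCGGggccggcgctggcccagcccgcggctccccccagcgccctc

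The SCIN window held the letters TATAAA at 2 places, beginning 29 and 214 bases before the start, and ATTGG, the reverse complement of CCAAT, beginning 229 bases before it. TATAAA is the core of the TATA box, which positions RNA polymerase II a short way downstream. On either strand and at any place, it was found in 10.7% of the 35116 promoter windows of the same length, and CCAAT in 32.0%. Of the 17 windows of the members, 2 held TATAAA on either strand. These were the SCIN window and 1 of the 6 GSN windows, where it read TTTATA, and GSN differed by -0.16. In a short stretch that takes in the SCIN match at 29 bases, TATAAA was found for 2.16% of plus strand genes. For minus strand genes the share was 2.43%. The FLII window held GGGCGG, the GC box bound by SP factors, at 2 places beginning 60 and 47 bases before the start, and GGAATG, a TEAD factor motif, beginning 76 bases before it. GGGCGG was present in 42.6% of windows and GGAATG in 11.9%. The E-box CACGTG (6.34% of windows) and the AP-1 motif TGACTCA (4.20%) were in neither window. None of these motifs overlapped another in the printed windows. SCIN had 18 CpG dinucleotides and a GC content of 60.0%, FLII 23 and 70.8%, where the median window had 11 and 58.0%. The matches are letters in these windows, and binding was not measured. The promoter table listed 6 of the 7 members, with a single start for SCIN, FLII and AVIL, 6 starts for GSN and 4 each for CAPG and SVIL.

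The remaining severing proteins of the family were close to equal between the states. GSN (Entrez gene 2934) encodes gelsolin, the founding member, which exists as a cytoplasmic form and as a secreted plasma form. Its brightest probe set, 200696_s_at, had a value of 10.07 in overexpression and of 10.23 in knockdown. GSN was thus bright in both states, with a difference of -0.16. The other GSN probe set past the filter, 214040_s_at, read 6.38 and 6.66, a difference of -0.27. Both therefore pointed the other way from SCIN, by less than 1.5-fold. The other 5 GSN probe sets had both values below background.

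The villin-type members, which add a carboxy-terminal headpiece that binds filaments, were dim. VIL1 (Entrez gene 7429) encodes villin, a bundling and severing protein of intestinal and renal brush border microvilli. Its brightest probe set, 1554943_at, had a value of 6.71 in overexpression and of 6.80 in knockdown, a difference of -0.09. Probe set 228912_at read 6.02 and 6.27. The values of the other 2 VIL1 probe sets were below background on both arrays, including 205506_at, at 4.50 and 5.29, for which no fold is given. All 4 VIL1 probe sets had a lower value in overexpression, and none with a value above background did so by 1.5-fold. AVIL (Entrez gene 10677) encodes advillin, a relative of villin known from sensory neurons. Its brightest probe set, 233333_x_at, read 6.46 and 6.54, a difference of -0.07. The other 2 AVIL probe sets were below background on both arrays, so AVIL rests on a single probe set of the kind that may cross-hybridize.

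CAPG and FLII had small positive differences. CAPG (Entrez gene 822) encodes a macrophage-capping protein with fewer gelsolin-like domains that caps barbed ends without cutting filaments. Its only probe set, 201850_at, had a value of 11.09 in overexpression and of 10.78 in knockdown. The difference of 0.32, or 1.24-fold, was the next largest in the family, and 23.7% of genes past the filter had an absolute difference at least as large. FLII (Entrez gene 2314) encodes flightless-1, which joins gelsolin-like domains to leucine-rich repeats and also acts as a coregulator of nuclear receptors. Its brightest probe set, 212024_x_at, had a value of 10.43 in overexpression and of 10.23 in knockdown. Probe set 222065_s_at read 10.06 and 9.91, and 212025_s_at read 9.19 and 8.90. All 3 were bright and higher in overexpression, by 0.20, 0.16 and 0.29. Each FLII and CAPG difference was above the 0.10 by which hybridization controls differed, but with no second culture its size cannot be set against a replicate spread.

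SVIL (Entrez gene 6840) encodes supervillin, a large membrane-associated protein that binds filaments and non-muscle myosin II, and it had the smallest difference of the family. Its brightest probe set, 202565_s_at, had a value of 9.51 in overexpression and of 9.49 in knockdown, a difference of 0.03. Probe set 202566_s_at read 7.71 and 7.72, and 217634_at read 6.04 and 6.05. These 3 probe sets gave differences between -0.01 and 0.03, so several SVIL probe sets above background had nearly the same value in both states. The last, 1569512_at, was below background on both arrays.

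Over the family, 1 of 7 members was at least 1.5-fold higher in overexpression, against a background of 4.97% among the 12061 filtered genes, and 0 were at least 1.5-fold lower, against 4.15%. At 2-fold the background shares were 1.65% and 1.53%, and SCIN was again the 1 member past it. The family was chosen for SCIN, so nothing is read from this count. The 6 other members lay between -0.16 and 0.32, with a median of -0.02. Of their 12 probe sets with both values above background, the largest absolute difference was the 0.32 of CAPG. For 46.4% of genes past the filter the absolute difference was at least as large as that of GSN, for 39.4% as that of FLII and for 85.8% as that of SVIL.

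**Figure D2:**
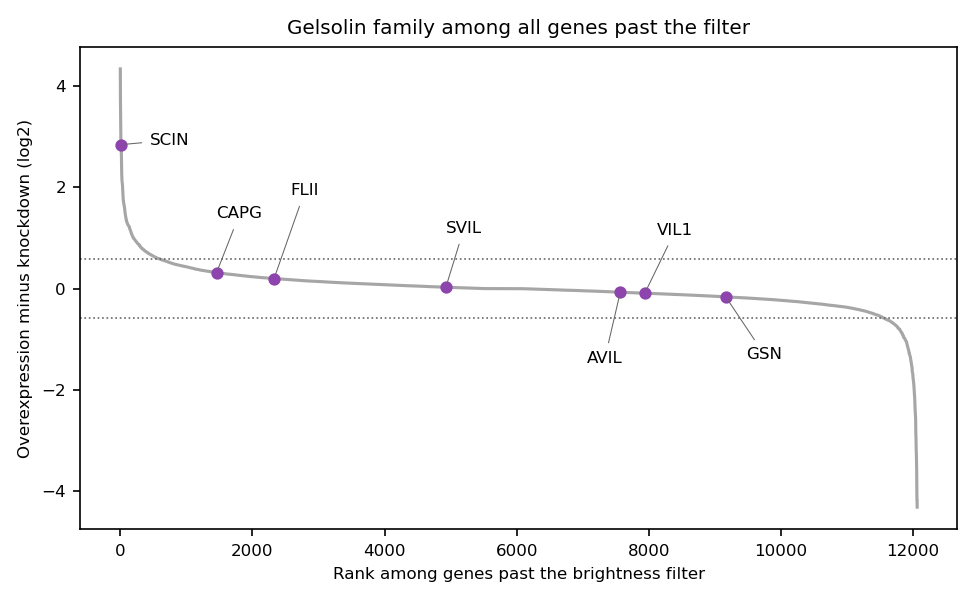
Difference in log2 units (y axis) of the 12061 genes past the filter, ordered from the highest to the lowest (x axis, grey line), with the 7 family members as purple points and dotted lines at 1.5-fold. SCIN stands at rank 10 on the steep left end, and the other 6 members lie on the flat middle between the dotted lines.

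SCIN shared its place in the order of differences with genes of other kinds. The 3 genes just above it were L1CAM, a neural adhesion molecule, CCSER1 and EFNB2, the ligand ephrin B2, at 3.23, 2.94 and 2.94. The 3 genes just below were DOCK2, an exchange factor for the GTPase Rac, RIPOR3 and EMP2 itself, at 2.75, 2.75 and 2.74. The knockdown values of SCIN, EFNB2, RIPOR3 and EMP2 were above background. Those of L1CAM, CCSER1 and DOCK2 were below it, so their differences are as deposited and the order rests in part on values below background. Across 2 arrays this likeness is a single number per gene.

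Other genes of actin turnover were taken from 12 lists drawn up by role. Among their 109 distinct filtered genes, overexpression was at least 1.5-fold higher for 8 and at least 1.5-fold lower for 5, and 96 were under 1.5-fold. These are shares of 7.34% and 4.59%, near the 4.97% and 4.15% over all filtered genes. Their median difference was 0.01, beside 0.00 over all genes past the filter. The closest relative outside the 7 members is VILL, a villin-like protein, which had a value of 7.56 in overexpression and of 7.38 in knockdown, a difference of 0.18. List members without a probe set of a single symbol, FLNA and ACTG1 among them, were not analysed here.

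Of 12 depolymerising factors and their cofactors, 2 were at least 1.5-fold higher and 0 lower, with a median of 0.02. The 2 genes are 16.7% of the list, beside 4.97% higher over all filtered genes. With so few genes, nothing particular to the list is read from this. COTL1, a coactosin-like filament-binding protein, had a value of 12.34 in overexpression and of 11.54 in knockdown, a difference of 0.80, and 2 of 3 filtered COTL1 probe sets reached 1.5-fold. CORO2B, a coronin, read 7.42 and 5.78, and since the second value was below background it was at least 2.97-fold higher. The main filament-severing protein of most cells outside the gelsolin family, cofilin 1 (CFL1), had the identical deposited value of 13.95 on both arrays. Identical values were found in 14.6% of all probe sets. DSTN, destrin, differed by -0.23 and CFL2, cofilin 2, by 0.18. Of 11 kinases and phosphatases acting on cofilin, 1 (9.09%, beside the same 4.97%) was at least 1.5-fold higher. This was LIMK1, which inactivates cofilin by phosphorylation, at 8.29 and 7.67, on the 1 filtered probe set of its 3.

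Filament end capping, monomer binding and the actins held no gene past 1.5-fold. Over all filtered genes 4.97% were higher and 4.15% lower, and with so few listed genes nothing is read from this. Of 15 capping genes, 0 differed by 1.5-fold, with a median of 0.02. The largest absolute differences were those of EPS8, a capping and bundling protein of microvilli, at 11.27 and 10.76, and ADD3, an adducin, which differed by 0.28. Of 5 monomer-binding genes, 0 differed by 1.5-fold. The thymosin TMSB10, which holds actin monomers, differed by -0.14 and MTSS1, a membrane-bending protein that binds monomers, by -0.06. TMSB4X differed by -0.02 and profilin 1 (PFN1) by 0.04. Of the actins, ACTB read 14.49 and 14.50, and ACTA2 differed by -0.17.

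Tropomyosins wind along filaments and shield them from severing. At least 1.5-fold higher were 2 of the 3 filtered tropomyosin genes, and the group's median was 0.79. That is 66.7% of the list, beside 4.97% higher over all filtered genes. With only 3 genes, nothing particular to the list is read from this. The count was 1 with all probe sets averaged, with the filter at the 75th percentile, and at 2-fold. TPM3 had no probe set of a single symbol. TPM1 had a value of 12.68 in overexpression and of 11.89 in knockdown, a difference of 0.79, and 5 of 5 filtered TPM1 probe sets reached 1.5-fold. TPM2 read 7.74 and 6.32, a difference of 1.42, on the 1 filtered probe set of its 4. TPM4 differed by 0.10. TPM1 was therefore the tropomyosin with the most probe sets behind its difference.

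Of 25 nucleation genes, 3 were at least 1.5-fold lower and 0 higher, with a median of 0.00. The 3 genes are 12.0% of the list, beside 4.15% lower over all filtered genes, and with so few genes nothing particular to the list is read from this. COBL, cordon-bleu, a nucleator with WH2 domains, had a value of 6.48 in overexpression and of 8.95 in knockdown, a difference of -2.47, and both filtered COBL probe sets reached 1.5-fold. WASF3, which activates the Arp2/3 complex, read 9.19 and 10.33, a difference of -1.14. DAAM1, a formin, read 7.14 and 7.97, a difference of -0.83, and 2 of 3 filtered DAAM1 probe sets reached 1.5-fold. Of 11 bundling and cross-linking genes, 1 (9.09%, beside the same 4.15%) was at least 1.5-fold lower. This was LCP1, the leukocyte plastin, at 7.41 and 9.98, a difference of -2.57 on its only probe set. LCP1 was also a leukocyte marker of the lists, and the other 4 leukocyte markers measured differed by less than 0.10, with PTPRC and CD14 below background on both arrays. The summed linear level of the 5 measured leukocyte markers was 385 in overexpression and 1228 in knockdown, and without LCP1 it was 214 and 217.

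Of 9 microvillus and membrane linker genes, 1 (11.1%, beside 4.97% over all filtered genes) was at least 1.5-fold higher. RDX, radixin, which ties filaments to membrane proteins, had a value of 12.96 in overexpression and of 12.30 in knockdown on its brightest probe set. All 3 filtered RDX probe sets reached 1.5-fold, with differences of 0.66, 1.39 and 1.17. EZR, the related ezrin, differed by 0.19. Of 10 partners of FLII and SVIL, 1 (10.0%, beside the same 4.97%) was at least 1.5-fold higher, and the median was 0.02. With 1 gene in each list, nothing particular to a list is read from these shares. MYLK, myosin light chain kinase, which binds supervillin, read 8.22 and 7.41, and 1 of 2 filtered MYLK probe sets reached 1.5-fold. LRRFIP1 and LRRFIP2, which bind the leucine-rich repeats of flightless-1, differed by -0.09 and 0.04, and the myosin heavy chain MYH9 by -0.18.

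The lipid PIP2, which releases gelsolin-type caps, is made by phosphoinositide kinases, and of 6 such genes 1 was at least 1.5-fold higher and 1 lower. Each is 16.7% of the list, beside 4.97% higher and 4.15% lower over all filtered genes. With so few genes, nothing particular to the list is read from this. PIP4K2A, a type II kinase, had a value of 11.59 in overexpression and of 10.46 in knockdown, a difference of 1.13, and all 3 of its probe sets were past 1.5-fold. PIP5K1B, a type I kinase, read 4.46 and 6.53. The first value was below background, so it was at least 1.61-fold lower, on 1 of its 2 probe sets. PIP5K1A differed by 0.24. The group's median was 0.01, with a single gene at each end.

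**Figure D3:**
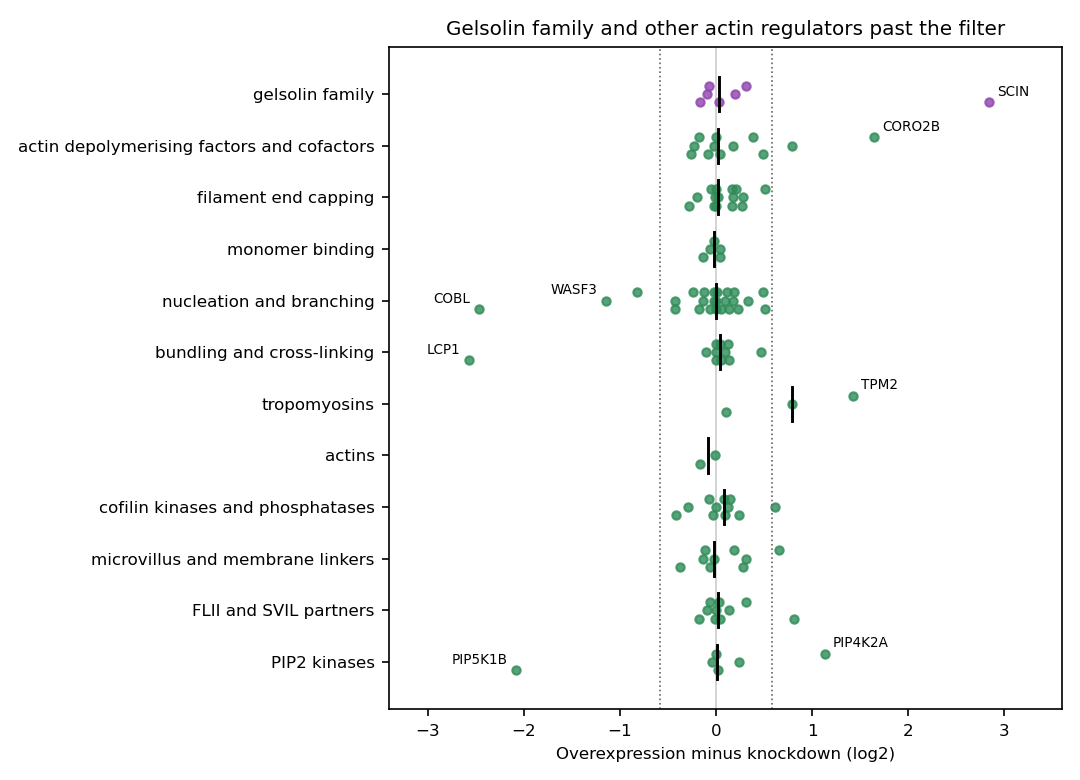
Difference in log2 units (x axis) of each gene past the filter, for the gelsolin family (purple) and 11 lists of other actin regulators (green, y axis), with black bars at the medians, dotted lines at 1.5-fold and names for genes at least 2-fold apart. The medians lie close to 0 except for the 3 tropomyosins at 0.79, and SCIN, at 2.84, is the point farthest to the right.

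The genes beside SCIN on chromosome 7 did not share the direction of SCIN. Of the 10 measured genes nearest to SCIN in the RefSeq gene order of GRCh38.p14, 5 on each side, 5 passed the brightness filter, and these lay between -1.67 and -0.24. THSD7A, a thrombospondin-domain protein, had a value of 5.92 in overexpression and of 7.58 in knockdown, giving a difference of -1.67. Its other 2 filtered probe sets differed by -1.02 and -2.38 as deposited, with overexpression values below background. TMEM106B, a lysosomal membrane protein, read 11.13 and 11.70, and its 3 filtered probe sets differed by -0.57, -0.56 and -0.47. PHF14 differed by -0.49, the ETS factor ETV1 by -0.44 and COXFA4 by -0.24. The other 4 probe sets of ETV1 were also below 0, between -0.32 and -0.01. The other 5 neighbours, VWDE, DGKB, MEOX2, SOSTDC1 and LRRC72, were below background on both arrays. The neighbours were described after the difference of SCIN was known, and nothing beyond these values was tested.

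**Figure D4:**
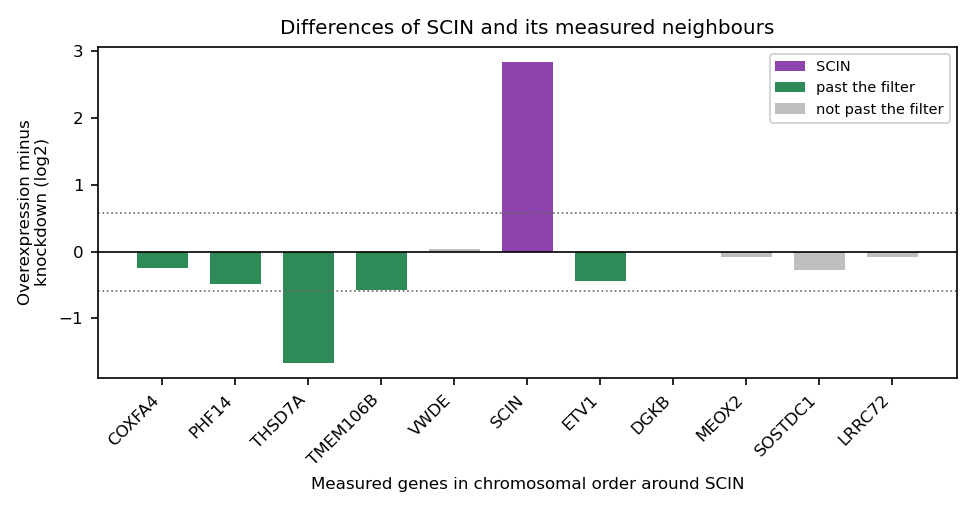
Difference in log2 units (y axis, bars from 0) of SCIN (purple) and the 5 measured genes on each side of it in chromosomal order (x axis), green where the gene passed the brightness filter and grey where it did not, with dotted lines at 1.5-fold. SCIN stands at 2.84, and the 5 green neighbours lie between -1.67 and -0.24.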

How the data were processed

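RNA was isolated by a Qiagen method and labelled with biotin, per the labels' protocols. The submitters' processing notes name Partek 6.6. Not given in the sources used here were the background correction, normalization and probe set summary. The values deposited by the authors are on a log2 scale, a base taken from their range of 2.01 to 14.72. The array medians were 6.02 and 6.01, so a shift common to most genes could have been removed before deposit. Of 54675 probe sets, 41097 had 1 gene symbol in the platform annotation. A gene is represented by its brightest probe set and passed the filter, the median of single-symbol probe sets, in 61.0% of cases. A fold against a value not above the highest Bacillus subtilis control is a lower bound. Counts were made at 1.5-fold and, as an alternative, at 2-fold. The genes named were the 7 members, EMP2, the list genes past 1.5-fold (or the 2 most different), and the 3 genes on each side of SCIN in the order of differences. Some further list genes, PFN1, CFL1 and EZR among them, were chosen after their values were seen. The members and lists were chosen with earlier results of these data known. The counting at 1.5-fold was tested on simulated data with a single probe set per gene, no filter and shifts well above the threshold. The choice of probe set, the filter and the background bound were not tested by it. Python 3.11.15 and pandas 2.3.3 were used.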

Additional observations from a re-analysis of the deposited data

How the results depend on the processing

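No paired analysis was possible because each group has 1 array, and for the same reason no replicate could be left out. Centring on the medians and quantile normalization left each member's difference within 0.10 of its value. Centring could change little, since the deposited medians were already 6.02 and 6.01. Neither step tests the normalization done before deposit. With all probe sets of a gene averaged, SCIN differed by 1.27, and 0 members were at least 1.5-fold higher, because the SCIN average fell below the filter. VIL1 then differed by -0.33 and AVIL by 0.04. That average takes in probe sets below background. Of the actin list genes, 5 were then higher and 3 lower. With the filter at the 75th percentile these counts were 4 and 3, since fewer genes were counted, and at 2-fold 3 list genes were higher. With no filter the counts of members and of list genes past 1.5-fold were unchanged. Signal over background limits the rest: 11 of 26 member probe sets had both values below the background level, and the knockdown value of SCIN lay 0.10 above it. With the 95th percentile of the bacterial controls as background, 5 of 26 probe sets were below it, the SCIN value lay 0.98 above it, and the bound on the SCIN probe set 1552367_a_at was 3.11-fold in place of 1.70-fold.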
